A study of Mus musculus with 2 samples.

Results

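The Retnla Ear2 Mmp12 cells were a small group of monocyte-lineage cells found by their reads among CD45+ cells of mouse hearts, and 103 of 5263 kept cells met the rule. A cell was counted in when it had at least 2000 CPM (reads per 1000000 reads of that cell) of Retnla, at least 100 CPM of 1 or more of Ear2, Mmp12 and Aldh1a2, and at least 100 CPM of fewer than 2 of Lyve1, Folr2, Cd163 and Cbr2. It also needed less than 1000 CPM of Saa3, less than 50 of Mki67 and less than 200 of Cd79a. These values chose the cells, so the levels of these genes are given below as a description, and a comparison of the members with other cells is a description too. Of the members, 86 came from sham hearts (83.5%) and 17 from hearts after transverse aortic constriction (TAC), so "of sham hearts" holds for most of the cells and not for all.

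The hearts came from male C57BL/6N mice, the strain the labels give for all groups, and were taken 1 week after surgery. Wild-type (WT) and CD3ϵ-/- mice, which carry a germline deletion that blocks T cell development, had a sham operation (WT sham, CD3ϵ-/- sham) or TAC, in which a suture around the aortic arch raises the pressure the left ventricle works against (WT TAC, CD3ϵ-/- TAC). WT mice that were injected with an anti-CD8 antibody from the day of TAC and every 3 days after it made the last group (CD8-depleted TAC). CD45+ cells were taken by magnetic selection. Each group carried 1 hashtag, all 5 were captured as 1 pooled library, and the number of mice behind a hashtag is not given in the sources used here, so every group counts as 1 sample and no test between groups could be made. Intervals below cover counting error only.

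The labels were checked first. Cd3g, which encodes a chain of the T cell receptor complex, had reads in 53 of 1000 cells of WT sham and 47 of 1615 of WT TAC, against 3 of 835 in CD3ϵ-/- sham and 1 of 919 in CD3ϵ-/- TAC. Cd3e itself still had reads in 42 of 835 cells of CD3ϵ-/- sham and 83 of 919 of CD3ϵ-/- TAC (5.03% and 9.03%). In WT sham and WT TAC it had reads in 69 of 1000 and 103 of 1615 cells (6.90% and 6.38%), so CD3ϵ-/- TAC was above WT TAC by this share. Over all cells Cd3e was at 3.73 and 5.64 CPM in the CD3ϵ-/- groups against 17.8 and 10.8 CPM in WT sham and WT TAC. Cd8a had reads in 8 of 894 cells of the group labelled CD8-depleted TAC and in 16 of 1615 of WT TAC (0.895% and 0.991%). The depletion was thus not visible in Cd8a reads, which few cells had, and whether it took place cannot be told from them. The paper counted CD8+ T cells of the heart by flow cytometry, which these reads do not replace. Ptprc, which encodes CD45, had reads in every member. Total reads per group ran from 91899777 to 208758777, and no cell barcode was shared between hashtags.

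Macrophages of the heart are usually divided by surface receptors into long-lived resident cells with Lyve1, Timd4 and Folr2, and cells with Ccr2 that are replaced from blood monocytes. Retnla encodes RELMα, a secreted protein of the resistin family that interleukin-4 and interleukin-13 induce in macrophages, Ear2 an eosinophil-type ribonuclease, Mmp12 a metalloproteinase that cleaves elastin, and Aldh1a2 the enzyme that makes retinoic acid from retinal. In the peritoneal and pleural cavities, small macrophages derived from monocytes carry Retnla, Cd226 (an adhesion receptor of the immunoglobulin family), Ccr2 and MHC class II, while large cavity macrophages depend on the transcription factor Gata6.

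The promoters of the 4 genes that chose the cells are shown because their levels define the cells. Each run is the 250 bases before the RefSeq start of the gene (build GRCm38.p6, 5′ to 3′ in the direction of the gene), and capitals mark matches to 5 motifs searched on both strands. Mmp12 has 2 start sites in the table.
Retnla, chr16:48842359-48842608, plus strand: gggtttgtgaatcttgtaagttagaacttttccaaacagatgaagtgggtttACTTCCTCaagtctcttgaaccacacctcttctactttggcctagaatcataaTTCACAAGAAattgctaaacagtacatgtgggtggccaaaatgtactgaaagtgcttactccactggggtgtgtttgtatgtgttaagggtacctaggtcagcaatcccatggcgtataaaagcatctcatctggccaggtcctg
Ear2, chr14:44102404-44102653, plus strand: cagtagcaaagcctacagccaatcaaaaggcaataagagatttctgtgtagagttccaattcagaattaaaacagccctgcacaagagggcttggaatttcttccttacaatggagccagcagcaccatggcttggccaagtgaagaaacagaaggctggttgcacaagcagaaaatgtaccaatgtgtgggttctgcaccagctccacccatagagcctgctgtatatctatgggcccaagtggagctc
Mmp12 first start, chr9:7344147-7344396, plus strand: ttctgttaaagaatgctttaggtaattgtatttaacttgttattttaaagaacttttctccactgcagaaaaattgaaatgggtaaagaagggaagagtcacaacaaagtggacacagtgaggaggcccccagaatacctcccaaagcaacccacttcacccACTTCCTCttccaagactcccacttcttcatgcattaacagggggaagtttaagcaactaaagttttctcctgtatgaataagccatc
Mmp12 second start, chr9:7347124-7347373, plus strand: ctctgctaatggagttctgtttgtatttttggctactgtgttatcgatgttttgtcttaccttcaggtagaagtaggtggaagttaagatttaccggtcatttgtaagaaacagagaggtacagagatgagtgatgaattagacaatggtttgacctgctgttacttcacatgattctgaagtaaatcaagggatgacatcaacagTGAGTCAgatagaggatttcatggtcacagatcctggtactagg
Aldh1a2, chr9:71215539-71215788, plus strand: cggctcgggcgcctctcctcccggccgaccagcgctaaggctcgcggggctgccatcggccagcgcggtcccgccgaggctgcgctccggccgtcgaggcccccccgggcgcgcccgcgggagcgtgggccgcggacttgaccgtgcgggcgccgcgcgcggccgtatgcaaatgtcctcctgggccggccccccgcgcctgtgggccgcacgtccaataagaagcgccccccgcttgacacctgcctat
The Retnla window held 1 match to the STAT6-type motif, TTC and GAA with any 4 bases between them, bound by STAT6, which carries the interleukin-4 signal, beginning 145 bases before the start. It also held 1 match to GAGGAAGT, a motif of the myeloid factor PU.1, on the opposite strand, beginning 198 bases before the start. The first Mmp12 window held the PU.1 letters on the opposite strand 88 bases before the start, and the second held TGANTCA, the AP-1 motif, 44 bases before it. Ear2 and Aldh1a2 held no match to these, to the IRF4-type motif (GAAA repeated after any 2 bases) or to the retinoic acid receptor pair (AGGTCA repeated after any 5 bases). Among all 32851 promoter windows of the same length, 5.85% held the STAT6-type motif, 2.44% GAGGAAGT, 6.75% TGANTCA, 2.98% the IRF4-type motif and 0.00913% the receptor pair. Of the 15 genes that led the comparison with other cells below, 9 had a promoter in the table, and Retnla was the 1 among them with the STAT6-type motif and with GAGGAAGT, Ecm1 the 1 with TGANTCA.

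The cells were frequent in sham hearts and rare after TAC. They made up 43 of 1000 cells of WT sham (4.30%, exact 95% interval 3.13 to 5.75) and 43 of 835 of CD3ϵ-/- sham (5.15%, 3.75 to 6.87). They made up 11 of 1615 cells of WT TAC (0.681%, 0.340 to 1.22), 4 of 919 of CD3ϵ-/- TAC (0.435%, 0.119 to 1.11) and 2 of 894 of CD8-depleted TAC (0.224%, 0.0271 to 0.806). The intervals of both sham groups lay above those of all 3 TAC groups, those of the sham groups overlapped each other, and so did those of the TAC groups. Over monocytes and macrophages alone (cells with at least 100 CPM of Csf1r and 1000 CPM of Lyz2), the sham shares were 6.80% (WT) and 8.33% (CD3ϵ-/-), against 0.931% for WT TAC, 0.438% for CD3ϵ-/- TAC and 0.306% for CD8-depleted TAC. A lower share after TAC can come from fewer of these cells or from more of the others, and these cannot be told apart from shares.

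**Figure D1:**
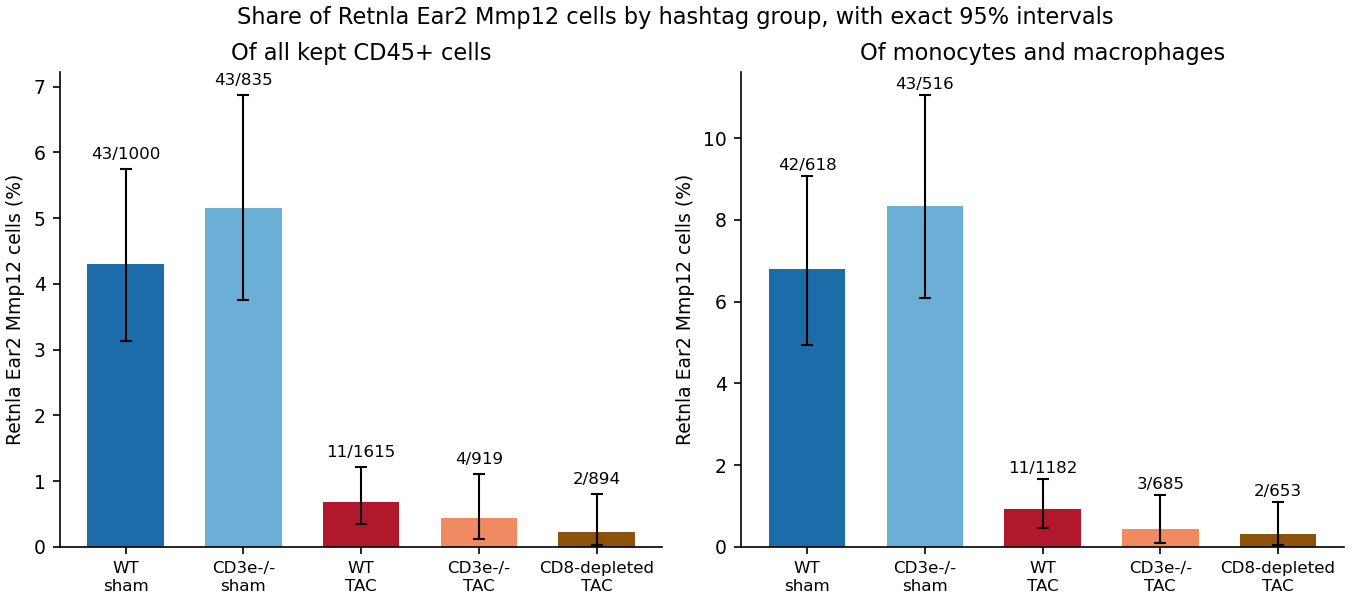
Share of Retnla Ear2 Mmp12 cells by hashtag group, in percent of all kept CD45+ cells (left) and of monocytes and macrophages (right); bars are shares, lines exact 95% binomial intervals, and the labels above give cells of cells. The sham groups stand at 4.30% and 5.15% of all kept cells and the TAC groups at 0.681% or less.

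Few cells lay near the limit of the rule. Retnla reached 2000 CPM in 134 cells, of which 20 lacked Ear2, Mmp12 and Aldh1a2 at 100 CPM and 11 more met an exclusion, with 8 past the limit for Mki67, 3 for Cd79a and 1 for the Lyve1 list. Cells with 2000 CPM of Retnla were 56 of 1000 in WT sham and 55 of 835 in CD3ϵ-/- sham. After TAC they were 17 of 1615 in WT TAC, 4 of 919 in CD3ϵ-/- TAC and 2 of 894 in CD8-depleted TAC. The members nearest the Retnla limit had 2089 and 2277 CPM, and the nearest cells outside it 1987 and 1412 CPM. Among cells that met every other criterion, 8 had 1000 to 2000 CPM, 17 had 2000 to 4000 and 86 had over 4000.

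Retnla was high in the members by the rule. Its level from summed reads was 14928 CPM in WT sham, 14624 in CD3ϵ-/- sham, 12248 in WT TAC, 4618 for CD3ϵ-/- TAC and 26442 for CD8-depleted TAC. Per cell, WT sham members ranged from 2089 to 34320 CPM with a median of 9992, and CD3ϵ-/- sham members from 2981 to 78306 with a median of 12066. The ranges of all 5 groups overlapped that of CD3ϵ-/- sham. Other monocytes and macrophages had a median of 0 CPM in WT sham and 4.92 in CD3ϵ-/- sham, and 21 of these 1049 cells, left out by the other criteria, also passed 2000 CPM.

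The 3 accompanying genes were not found together in every cell. Ear2 reached 100 CPM in 95 of 103 members, Mmp12 in 64 and Aldh1a2 in 51, with 1 of the 3 in 26 cells, 2 in 47 and all 3 in 30. In WT sham 9 of 43 members had all 3 and in CD3ϵ-/- sham 18 of 43, which also had the deeper cells (median 148085 and 230832 reads per member). Ear2 stood at 1586 CPM in WT sham, 1204 in CD3ϵ-/- sham, 1165 in WT TAC, 1439 for CD3ϵ-/- TAC and 2521 for CD8-depleted TAC. Mmp12 stood at 711 and 1089 CPM in the sham groups, 1099 in WT TAC and 516 in CD3ϵ-/- TAC, and had no read in the 2 members of CD8-depleted TAC. Aldh1a2 ran between 154 and 222 CPM in all 5 groups. Log levels were correlated across the 86 sham members, thinned to 20000 reads each. The correlation with Retnla was 0.11 for Ear2, 0.08 for Mmp12 and 0.28 for Aldh1a2. Among those 3 genes it was -0.15 (Ear2 and Mmp12), 0.09 (Ear2 and Aldh1a2) and -0.08 (Mmp12 and Aldh1a2). The rule chose the cells on these 4 genes, which can lower such values, so they are a description. Reads of Ear1, Ear2 and Ear10, near-identical copies, could be split between them by the counting, and Ear2 is uncertain to that extent.

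Cd226 and Dcstamp, which the rule did not use, differed in how widely they were found. Cd226 had reads in 35 of 43 members of each sham group, in 8 of 11 members of WT TAC, 2 of 4 of CD3ϵ-/- TAC and 1 of 2 of CD8-depleted TAC. Its level was 324 CPM in WT sham (exact Poisson 95% interval 311 to 337), 309 in CD3ϵ-/- sham (298 to 320), 420 in WT TAC, 442 for CD3ϵ-/- TAC and 532 for CD8-depleted TAC, against 31.7 and 47.2 CPM in other monocytes and macrophages of the sham groups. At 20000 reads per cell, Cd226 was read in 77.9% of the sham members, 7.44% of the other monocytes and macrophages and 0% of 197 B cells, which should lack it. Dcstamp, a membrane protein needed for fusion of macrophages into giant cells, had reads in 7 and 19 members of the sham groups, 2 members of WT TAC and none of the others, so most members lacked it.

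**Figure D2:**
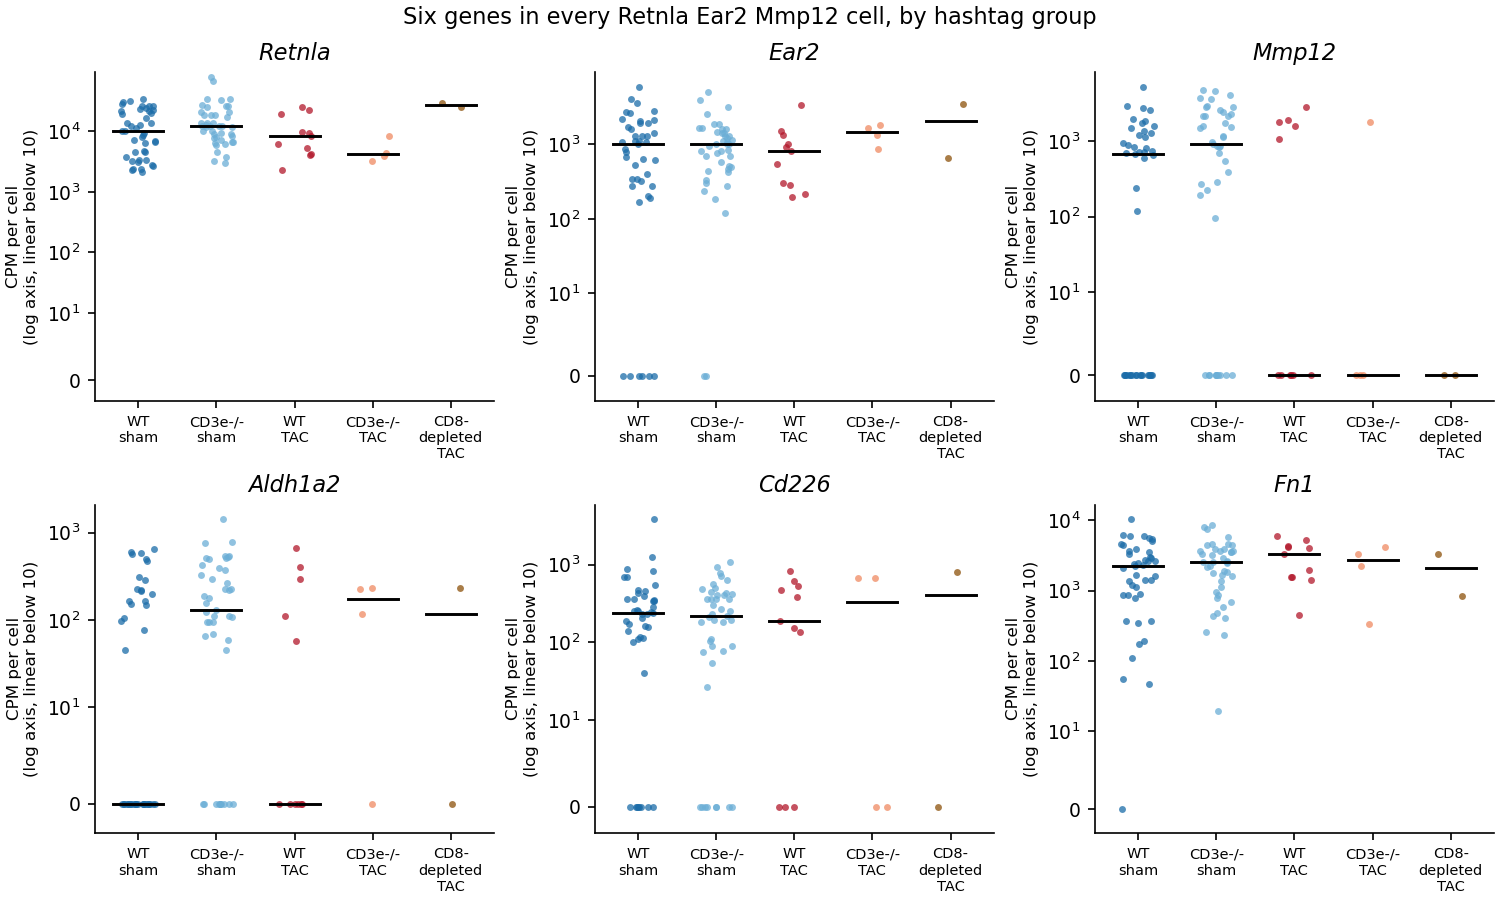
Level of 6 genes (panels) in every Retnla Ear2 Mmp12 cell by hashtag group, in CPM per cell on an axis that is logarithmic above 10 and linear below; each point is a cell and the black line is the median. Retnla is at 2089 CPM or more in all members by the rule, Cd226 and Fn1 were not used by the rule, and Mmp12 and Aldh1a2 show a band of cells at 0.

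Beyond the rule, the members carried macrophage genes with Ccr2 and MHC class II. Lyz2, the lysozyme of myeloid cells, stood at 14077 and 12875 CPM in WT sham and CD3ϵ-/- sham members, Csf1r, the macrophage growth factor receptor, at 588 in both, Ccr2 at 2324 and 2090, and H2-Ab1, a chain of MHC class II, at 9171 and 8929. Adgre1, which encodes F4/80, was lower, at 102 and 155 CPM against 456 and 335 in other monocytes and macrophages. The dendritic cell genes Flt3 and Zbtb46 were at 10.96 and 0.137 CPM in WT sham and 0.601 and 8.02 in CD3ϵ-/- sham members. The whole list of 15 dendritic cell genes summed to 1760 and 1843 CPM in the members against 1214 and 1541 in other monocytes and macrophages, with Mgl2 at 1012 and 945, and none of the 5 tested passed 4-fold (median 0.32). Gata6 and Timd4 had no read in any sham member. Of 8 small cavity macrophage genes Cd226 and Retnla were at least 4-fold higher than in other cells (median log2 ratio 0.65), and the others were Ccr2, Irf4 and MHC class II genes. Retnla chose the cells, so Cd226 is the 1 of these 2 that the rule did not use. Against other monocytes and macrophages with at least 500 CPM of Ccr2, the log2 ratio of Cd226 was 1.99, just under 4-fold. No set of cavity macrophages was compared here.

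Lists of T cells, B cells, neutrophils and fibroblasts had low summed levels in the members, though not below the other monocytes and macrophages in every case. Those of eosinophils, alveolar macrophages, type 1 dendritic cells (cDC1) and NK and innate lymphoid cells were above other monocytes and macrophages in summed level, which single genes can carry. The alveolar macrophage list summed to 1942 and 1584 CPM against 331 and 769. Ear2, a gene of the rule, made up most of it in the members, at 1586 and 1204 against 112 and 275. Of 3 genes tested in this list Ear2 was 4-fold higher and Chil3 4-fold lower. The cDC1 list summed to 1016 and 831 CPM against 766 and 808, but of its 4 genes tested none was 4-fold higher. Irf8 and Cadm1 were 4-fold lower (median log2 ratio -0.68). The NK and innate lymphoid list summed to 247 and 210 CPM against 140 and 149. In it Il1rl1, the interleukin-33 receptor, was at 174 and 166 CPM and Ncr1 and Gzma were at 0. The summed level of 10 T cell genes was 71.5 and 7.32 CPM in the sham groups against 73.3 and 15.8, with 1 WT sham member that had Cd3g, Trbc2 and Nkg7. That of 7 neutrophil genes was 23.3 and 22.5 CPM against 76.5 and 170, with S100a8 at 0 in the members. Fibroblast genes summed to 0.548 and 0.2 CPM against 156 and 66.4, with Dcn at 0 in the members, and B cell genes to 10.1 and 33.8 CPM against 34.1 and 27.4. The eosinophil genes summed to 1658 and 1256 CPM, nearly all of it Ear2, with Siglecf at 19.5 and 13.5 CPM. Members were read more deeply than other monocytes and macrophages of the same group (median 148085 against 75134 reads in WT sham and 230832 against 81119 in CD3ϵ-/- sham). The part of depth in the results was checked by thinning to 20000 reads, under which 4% and 5.03% of the sham cells met the rule.

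Against the other monocytes and macrophages of the same hearts, the members had 13 genes at least 4-fold higher and 46 at least 4-fold lower in both sham groups. These were 0.373% and 1.32% of 3483 genes with at least 50 CPM on one side (log2 ratios of summed CPM with 10 CPM added, median over all genes -0.03). The genes of the rule were Retnla, Aldh1a2 and Ear2 among the 13 and Lyve1, Folr2, Cbr2 and Mki67 among the 46. The ratios quoted are the smaller of the 2 sham groups.

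Cd2, an adhesion receptor known from T cells, was at 126 CPM in WT sham and 196 in CD3ϵ-/- sham members against 12.02 and 18.9 in the other cells (log2 ratio 2.62). It had reads in 30 and 31 of 43 members, and in TAC it stood at 77.6, 71.8 and 227 CPM in the members of WT TAC, CD3ϵ-/- TAC and CD8-depleted TAC. Of these members, 21 of 30 and 19 of 31 had no read of any of the 10 T cell genes. Cd226 followed at 2.48 and Rras2, a Ras-family GTPase, at 2.45, with 147 and 125 CPM against 13.4 and 14.6.

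Fn1, fibronectin, stood at 3113 and 2655 CPM in the sham members against 467 and 629 in the other cells (2.06), and Ecm1, an extracellular matrix protein, at 251 and 282 against 54.1 and 60.6 (2.02). Both were under 4-fold without the 10% of members with the most reads, at 1.95 and 1.68. Fn1 was also high in other cells after TAC (1215 CPM in WT TAC), where members had 2821. At 20000 reads per cell it was read in 38.6% of B cells, so some of its reads in other cells may be background. How much of them was not tested. Ndnf, a secreted fibronectin-domain protein, was at 89.3 and 96.2 CPM against 17.9 and 13.4 (1.83, just short of 4-fold). Lyz1, the second lysozyme gene, which shares reads with Lyz2, was at 2547 and 1803 CPM against 373 and 490 (1.86), but 62.05% of its WT sham reads came from 1 cell.

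Fcrls, a receptor-like molecule with Fc receptor domains, was high and widespread, at 1528 and 1283 CPM against 323 and 264 (2.21), with reads in 41 and 42 of 43 members. Its ratio was 1.84 with all cells thinned to 20000 reads and 1.85 without the 10% of members with the most reads. Hr, a transcriptional corepressor, was at 193 and 142 CPM against 13.8 and 26.8 (2.04, and 1.71 without those members). Upb1, an enzyme of pyrimidine breakdown, Socs6, of the family of cytokine signalling suppressors, and the transcript E230016K23Rik were between 2.11 and 2.12. Mmp12 itself was at 1.44, and the other cells held 394 CPM of it in CD3ϵ-/- sham against 65.7 in WT sham.

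Of the 46 lower genes, 5 were on the list of resident Lyve1-type macrophages. These were Lyve1, Folr2 and Cbr2, which the rule used, and Stab1 and Gas6, which it did not. Cx3cr1, Pf4 and Cd63, given next with Stab1 and Gas6, were lower genes outside that list. Cx3cr1, the fractalkine receptor, was at 67.8 and 96.2 CPM in WT sham and CD3ϵ-/- sham members against 924 and 710 in the other cells (-2.76). Stab1, a scavenger receptor, was at 11.9 and 37.3 against 610 and 310 (-2.76), Pf4, a chemokine, at 101 and 60.8 against 831 and 468 (-2.76), and Gas6, a ligand of receptors for dead cells, at 13.7 and 4.81 against 171 and 100 (-2.89). Cd63, a tetraspanin of lysosomes, was at 19.0 and 6.82 CPM against 302 and 184 (-3.42). Against comparison cells with at least 500 CPM of Ccr2, Gas6 (-1.05), Stab1 (-1.58) and Pf4 (-1.46) were under 4-fold. Cx3cr1 (-2.16) and Cd63 (-2.23) stayed past it. Rnase4, Col14a1, Serpinf1, Gpr183 and Itga6 lay between -2.92 and -2.65. Dcn, a proteoglycan of fibroblasts, was also in this list, but at 20000 reads it was read in 0.191% of the other cells, so few cells carried it.

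**Figure D3:**
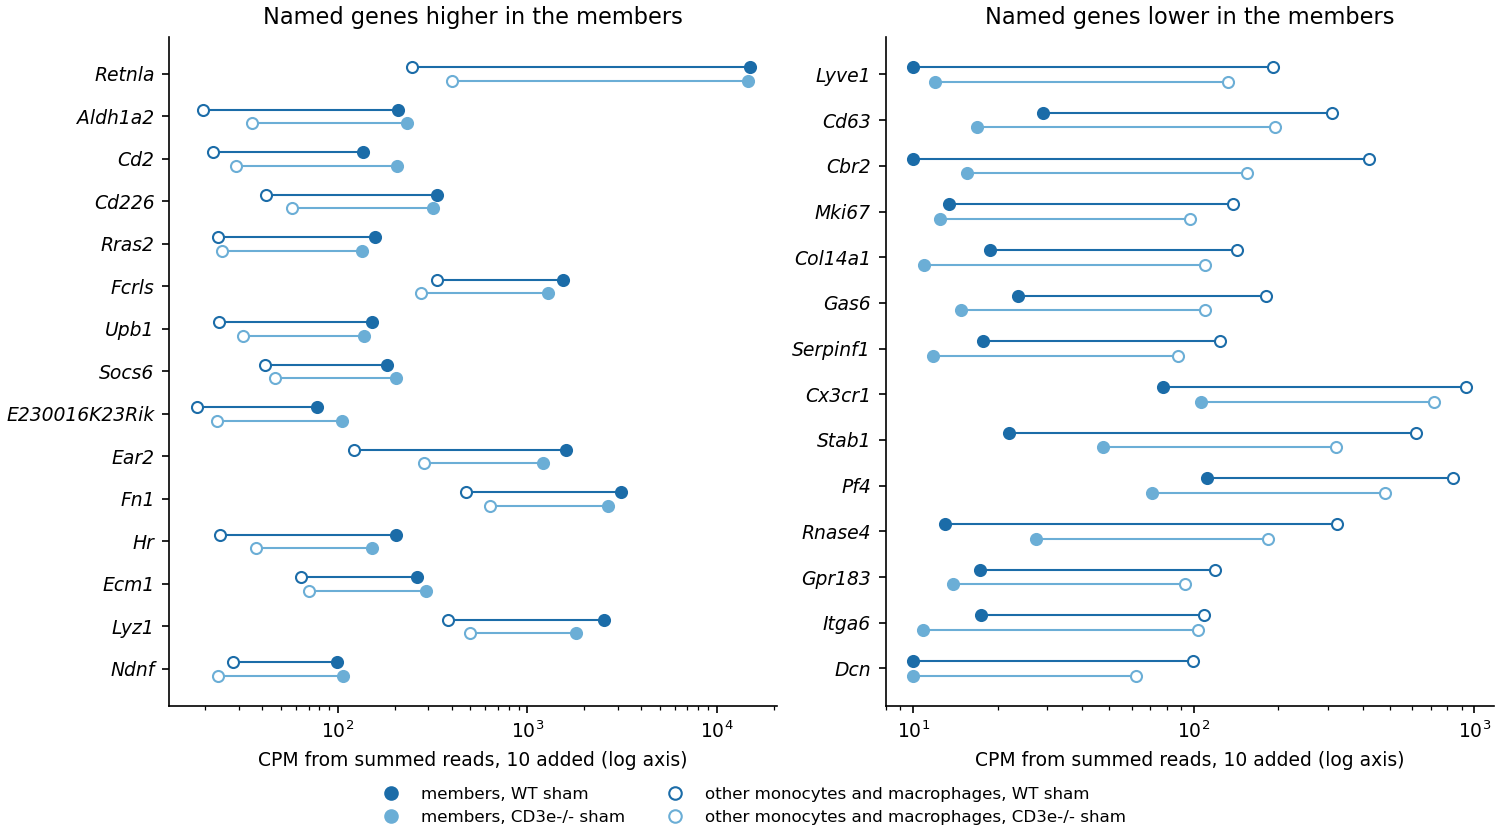
Levels from summed reads, in CPM with 10 added on a log axis, of 15 named genes highest (left) and 14 lowest (right) in Retnla Ear2 Mmp12 cells (filled) against other monocytes and macrophages (open) of WT sham and CD3ϵ-/- sham. Retnla differs most, at 14928 against 235 CPM in WT sham, and both sham groups show each difference in the same direction because the genes were chosen for that.

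The genes named from the sham groups were looked up in the few members after TAC. In the 11 members of WT TAC, 15 of the 15 higher genes were above and 14 of the 15 lower genes below the other monocytes and macrophages of that group, 8 and 11 of them by 4-fold. In the 4 members of CD3ϵ-/- TAC 12 of 15 and 14 of 15 kept the direction, and in the 2 of CD8-depleted TAC 13 of 15 and 14 of 15. These cells were chosen by the same rule, which used Retnla, Ear2, Aldh1a2, Lyve1, Cbr2 and Mki67, so the direction of these genes is no separate result. The cell with the most Retnla in WT TAC had 24779 CPM of it, with 216 of Ear2, 0 of Mmp12 and 109 of Aldh1a2, and the cell with the least had 2287 CPM, with 1515 of Ear2 and 1586 of Mmp12. With fewer than 20 members in each TAC group, no comparison of members between TAC and sham was made.

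By gene lists, the macrophage core had a median below 0 and MHC class II a median above 0. Of 15 core genes with enough reads none was 4-fold higher and 3 were 4-fold lower (median log2 ratio -1.56), namely Maf, Apoe and Msr1. Apoe, the lipid carrier, was at 688 and 1486 CPM in the sham members against 10777 and 7454. Of 8 MHC class II genes none passed 4-fold (median 0.64), and Ciita, their coactivator, was at 268 and 264 against 141 and 155. Of 11 genes of resident Lyve1-type macrophages 5 were lower (median -2.58), 3 of them genes of the rule.

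The retinoid, interleukin-4 and protease lists held 1 gene past 4-fold in a direction or none. Of 3 retinoid genes tested Aldh1a2, a gene of the rule, alone passed 4-fold. Rarg, a retinoic acid receptor, was at 66.2 and 78.8 CPM against 37.7 and 41.0. Of 14 interleukin-4 and interleukin-13 response genes Retnla, also a gene of the rule, was higher and Chil3, a chitinase-like protein, lower (median -0.18). Chil3 was at 12.6 and 5.61 CPM against 96.3 and 220. The rule used Aldh1a2 and Retnla, so their higher levels are no separate result about these lists. Arg1, the arginase of that response, had 0 and 9.82 CPM, Stat6 115 and 80.2, and Il4ra 49.2 and 47.8, each near or under its level in the other cells. Of 10 metalloproteinases and inhibitors Mmp13 was lower and none was 4-fold higher (median -0.38), and Adam8, a surface protease, was at 239 and 315 CPM against 42.3 and 116.

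Lpl, lipoprotein lipase, was at 2527 and 3132 CPM in the sham members against 601 and 988, and Pltp, the phospholipid transfer protein, at 1472 and 1527 against 479 and 480, both under 4-fold. Of 13 chemokines Ccl12, Cxcl16 and Pf4 were lower, while Ccl6 stood at 2889 and 3245 CPM against 770 and 1259 and Ccl9 at 2268 and 2506 against 696 and 1042. Cfp, properdin, which stabilises the complement convertase, was at 951 and 955 CPM against 177 and 269. Among 22 myeloid transcription factors Irf8 and Maf were lower and Hr higher, with Id2 at 509 and 722 against 169 and 324 and Batf3 at 275 and 202 against 85.3 and 107. None of 9 glycolysis genes passed 4-fold (median 0.61), and none of 17 immediate early genes, which dissociation of tissue can induce, did so (median -0.55).

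The members were set against 3 other cell sets. With Ccr2 MHC-II macrophages (cells with Csf1r, Ccr2, H2-Ab1 and Adgre1 and without Flt3, 87 and 95 in the sham groups), the correlation of log levels across genes was 0.83 in WT sham and 0.87 in CD3ϵ-/- sham, and 9 genes were 4-fold higher (0.268% of 3353) and 26 lower (0.775%, 1.04% in both directions). With cDC2-type cells (cells with Flt3 and Cd209a, 41 and 30) it was 0.81 and 0.80, with 47 genes higher (1.41% of 3328) and 18 lower (0.541%, 1.95% in both directions). With Lyve1-list macrophages it was 0.66 and 0.73, with 61 genes higher (1.69% of 3618) and 106 lower (2.93%, 4.62% in both directions). Genes are not independent replicates, and the sets shared 1 library. Apoe was the 1 core gene 4-fold lower against Ccr2 MHC-II macrophages (6768 and 6630 CPM there), and Cd226 (27.5 and 33.2 CPM there) and Retnla (141 and 93.3) were higher in the members. The genes that define each set differed by construction. Against cDC2-type cells, Lyz2, C1qa, C1qb and C1qc were higher in the members, while the dendritic cell genes Flt3, Dpp4, Cd209a, Clec10a and Klrd1 were lower. Cd226 was at 108 and 96.6 CPM in cDC2-type cells and did not pass 4-fold against them.

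The members differed among themselves strongly in Cxcl2, C1q and Mmp12. After thinning to 20000 reads, Cxcl2, a chemokine of neutrophils, had the largest standard deviation among the 86 sham members (3.8 on the log2 scale, sham groups centred), followed by C1qa (3.55), C1qc (3.46) and C1qb (3.32), the chains of the first complement component, and Mmp12 was the sixth (3.31). The summed C1q level ran from 0 to 13154 CPM in WT sham with a median of 451, and from 0 to 13186 in CD3ϵ-/- sham with a median of 1117, while the medians of the other monocytes and macrophages were 9882 and 7675. It was 100 CPM or more in 25 of 43 WT sham members, 31 of 43 in CD3ϵ-/- sham, 9 of 11 in WT TAC, 3 of 4 for CD3ϵ-/- TAC and 2 of 2 for CD8-depleted TAC.

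Some genes followed C1q and others went against it. Over the 86 cells, log levels of Pf4 (r = 0.66), C3ar1, a complement receptor (0.54), and Mrc1, the mannose receptor (0.45), correlated positively with C1q. Those of Fn1 (-0.49), Cd24a, a surface glycoprotein of dendritic and immature cells (-0.42), Adam8 (-0.39) and Hr (-0.38) correlated negatively. Depth was the same for all cells here, and Cd24a also correlated with the unthinned number of reads (0.43), whose part in the result was not tested. Cells of 1 hashtag share their source, so these correlations are a description.

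Members with more and with less C1q were set side by side. In the 56 sham members with 100 CPM of C1q or more and the 30 below it, Retnla was at 16542 and 11727 CPM, Mmp12 at 1002 and 807, Aldh1a2 at 199 and 236, and Ear2 at 995 and 1991. Cd226 was at 280 and 374 CPM, Ccr2 at 2297 and 2006, and H2-Ab1 at 9346 and 8498. Adgre1 was at 167 and 73.8 CPM, Fn1 at 2079 and 4150, and Cd24a at 181 and 433. The cells with less C1q had Retnla, Ccr2 and MHC class II, with lower values of Adgre1 and higher values of Fn1.

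**Figure D4:**
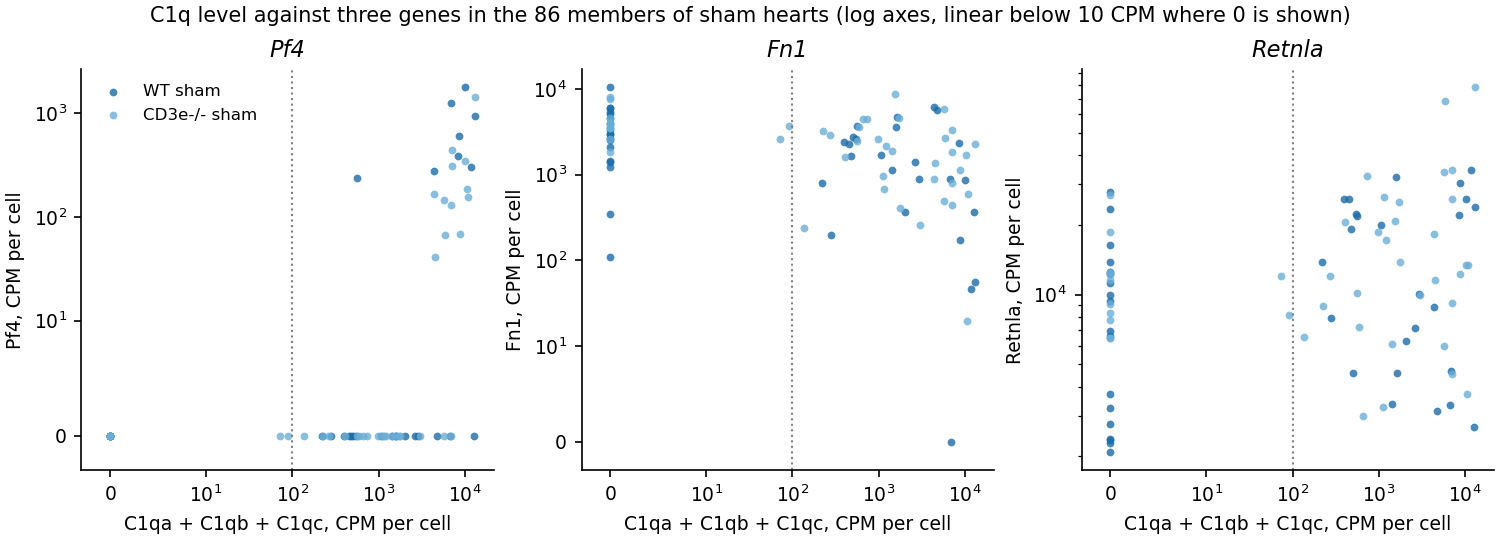
Pf4, Fn1 and Retnla (vertical axes) against the summed level of C1qa, C1qb and C1qc (horizontal axis) in each of the 86 Retnla Ear2 Mmp12 cells of WT sham and CD3ϵ-/- sham, in CPM per cell; axes are logarithmic, and linear below 10 where 0 is shown, and the dotted line marks 100 CPM. A column of cells at 0 C1q stands left of the line, Fn1 is lower and Pf4 higher toward the right, and Retnla is spread over its whole range on both sides.

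Between the sham groups, the high genes of the rule and Cd226 stayed under 2-fold, while Dcstamp was among 106 genes that passed it (2.98%). Retnla (log2 ratio of CD3ϵ-/- sham to WT sham -0.03), Cd226 (-0.06), Aldh1a2 (0.15), Ear2 (-0.39) and Mmp12 (0.61) all stayed under 2-fold. All of these but Cd226 chose the cells in both groups, so their likeness between the groups is no separate result. In other monocytes and macrophages the same ratio was 0.71 for Retnla, 0.46 for Cd226, 0.87 for Aldh1a2, 1.23 for Ear2 and 2.42 for Mmp12. Of 3553 genes 63 were at least 2-fold higher (1.77%) and 43 at least 2-fold lower (1.21%) in CD3ϵ-/- sham. With 43 cells on each side and 1 sample a group, single cells carried some of these sums. When the cell with the most reads of each gene was left out of each group, 49 of the 63 and 34 of the 43 were still past 2-fold.

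Of 12 chemokine genes 5 were past 2-fold, namely Ccl3, Ccl4, Ccl17, Ccl24 and Cxcl1 (median 0.89). Ccl3, a chemokine for monocytes, was at 237 CPM in CD3ϵ-/- sham and 35.9 in WT sham members, with reads in 14 and 9 of 43 cells, and at 173 against 29.1 without the strongest cell. Ccl4 was at 352 against 127 CPM. Ccl17 had reads in 2 cells of CD3ϵ-/- sham and 0 of WT sham. For Ccl24 and Cxcl1 98.8% and 86.9% of the CD3ϵ-/- sham reads came from 1 cell, and without it their log2 ratios were -0.23 and 0.31. In other monocytes and macrophages the same ratio was 0.43 for Ccl3 and 0.60 for Ccl4.

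Dcstamp was at 81.2 CPM in CD3ϵ-/- sham (19 of 43 cells) and 19.6 in WT sham members (7 of 43), and its log2 ratio of 1.62 was 1.63 without the strongest cell. The ratio was 1.32 with cells thinned to 20000 reads and 1.12 without the 10% of members with the most reads. Counts of cells with reads are not at equal depth, since CD3ϵ-/- sham members were read more deeply. Other monocytes and macrophages had 19.3 and 0.535 CPM of Dcstamp. Ccr1, a receptor for Ccl3 and Ccl9, was at 108 and 37.1 CPM, in 24 and 9 cells. Phf11b and Phf11d, related genes that may share reads, were at 163 and 115 CPM against 47.3 and 33.0, and Slfn5, of the interferon-induced Schlafen family, at 143 against 41.7. Ubr3, Tnfsf9, Slc2a6, Gm7072 and Yipf1 completed the 10 highest, with log2 ratios from 1.46 to 1.62.

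Of 5 interferon response genes Isg15, Ifit3 and Irf7 were past 2-fold, and 1 cell gave 88.7%, 97.5% and 63.7% of their CD3ϵ-/- sham reads. Without the strongest cell the log2 ratios of Isg15 and Ifit3 were 0.00 and 0.20. Slfn5 and Tnfsf9 stood at 0.88 and 0.78 in the same way, and Irf7 at 1.55. Isg15, Ifit3 and Irf7 had reads in 7, 2 and 6 of 43 CD3ϵ-/- sham members.

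Among the lower genes Spp1, osteopontin, came first at 34.5 CPM in CD3ϵ-/- sham against 516 in WT sham members, and 96.4% of the latter came from 1 cell. Without the strongest cell it was 28.1 against 19.2 CPM, with the sign turned. Gm46620 (14.9 against 132 CPM), Gm49980 (44.9 against 146) and Gm42031 (232 against 658) were lower in many cells. They were lower in the other monocytes and macrophages as well, with Gm42031 at 349 CPM in CD3ϵ-/- sham against 865 in WT sham and at 356 in CD3ϵ-/- TAC against 919 in WT TAC. Their lower level in CD3ϵ-/- hearts was thus found in members and other cells alike. Mfsd5, a membrane transporter, was at 30.8 against 111 CPM, with reads in 21 and 30 of 43 cells, and the ratio in the other cells was -0.48. Tmem242, Rere, Grap2, Rassf3 and Cyth2 had log2 ratios from -1.57 to -1.26.

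**Figure D5:**
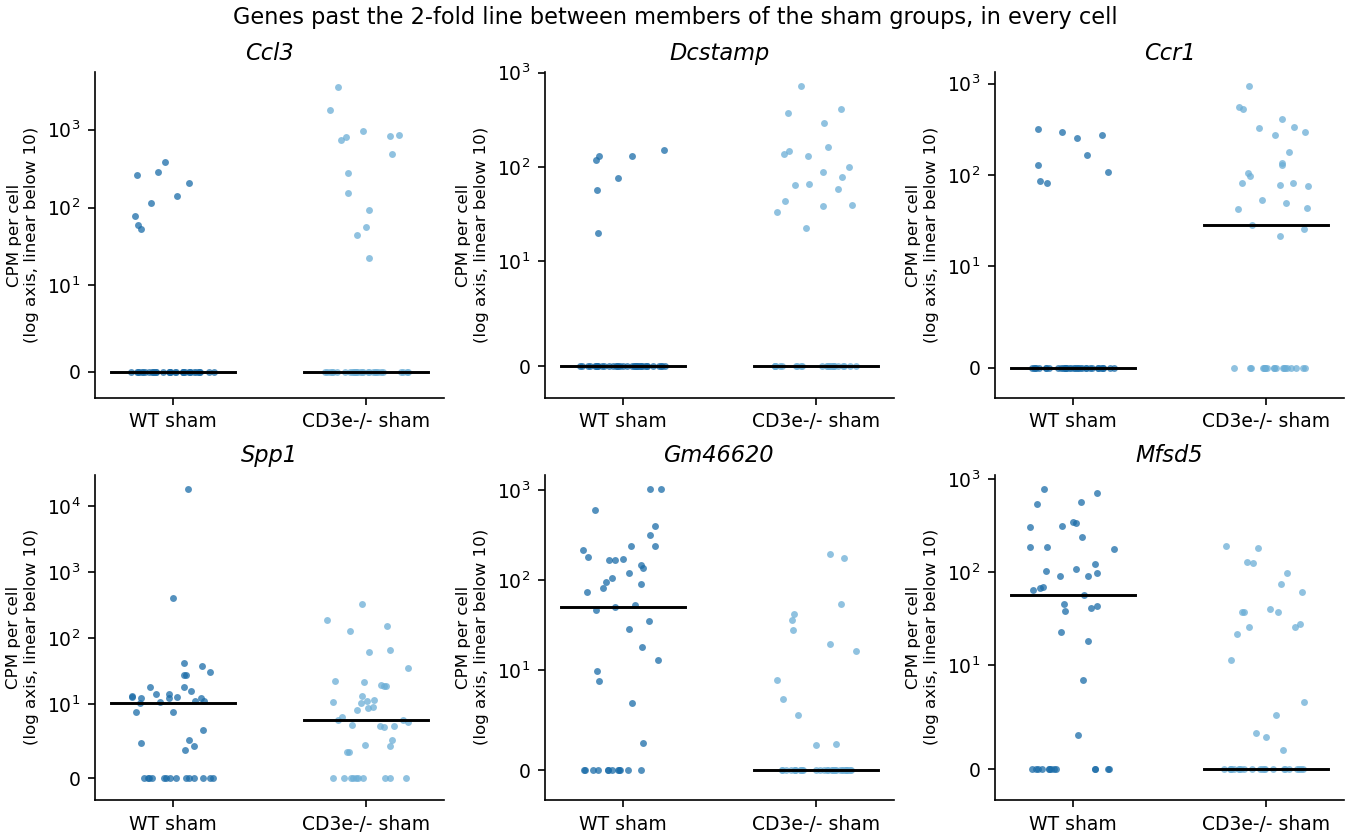
Level of 6 genes (panels) in every Retnla Ear2 Mmp12 cell of WT sham and CD3ϵ-/- sham, in CPM per cell on an axis that is logarithmic above 10 and linear below; each point is a cell and the black line is the median. Ccl3, Dcstamp and Ccr1 have reads in 14, 19 and 24 cells of CD3ϵ-/- sham against 9, 7 and 9 of WT sham, and the Spp1 difference is 1 cell of WT sham. These counts are not at equal depth (median 230832 reads per member in CD3ϵ-/- sham and 148085 in WT sham).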

How the data were processed

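CD45+ cells of the hearts of 5 groups were captured with BD Rhapsody and sequenced by TAS-Seq as 1 pooled cDNA library with 1 hashtag library. The submitters' processing notes name cutadapt 2.10, Bowtie2 2.4.2 and GRCm38. The deposited table holds raw read counts per gene and cell as the authors made them: whole reads, not molecules. The columns of 40 doublets and 8 cells without a hashtag were not used (48 of 5363), and no further doublet caller was run. Cells with at least 500 genes and a mitochondrial share of at most 0.4 were kept. Groups were taken from the hashtag notes.

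Levels are reads summed over cells per 1000000 reads (CPM), with exact Poisson intervals. Shares have exact Clopper-Pearson 95% intervals. Ratios are log2 with 10 CPM added, over genes of at least 50 CPM on one side. Genes count as past the line at 4-fold in both sham groups (members against other cells) or at 2-fold (between sham groups). No p-value was computed, since each group is 1 sample. Named are the 15 highest and 15 lowest genes of the first comparison, and the 10 highest and 10 lowest of the second with reads in at least 25% of the cells of the higher side. Results of 2 genes that these rules name are not reported here. Also named are the genes of the rule and markers, the genes that check the labels and, from each list, those with high levels or large ratios. Genes of the spread and C1q results were chosen after their values were seen. The members and the 40 gene lists were chosen with earlier results of these data known. Ratios and the rule were tested on simulated data. Python 3.11.15 with numpy and scipy was used.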

Additional observations from a re-analysis of the deposited data

How the results depend on the processing

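No paired analysis was possible because each group is 1 hashtag of 1 pooled library, with no replicate numbers. The members of TAC groups were not compared with WT sham, and its 4 alternatives were not run, because no TAC group had 20 members. Under all 8 alternatives for the share, both sham groups stayed above all 3 TAC groups. Most shares stayed within the interval of the reported share, except with 2 of the 3 accompanying genes required (WT sham 2.80%) and of monocytes and macrophages (6.80% in WT sham, 8.33% in CD3ϵ-/- sham). Against comparison cells with at least 500 CPM of Ccr2, 6 genes were 4-fold higher and 25 lower, of which 5 and 13 were among the 13 and 46. The counts between the sham groups moved more: 114 genes higher and 116 lower with the mean of single-cell CPM, 233 and 212 with no filter on level, 146 and 160 with cells thinned to 20000 reads, and 85 lower with 1 CPM added. Without the 10% of members with the most reads, 94 were lower. Thinning kept 37 of the 63 higher and 23 of the 43 lower genes. Of the 10 highest and 10 lowest genes between the sham groups, Spp1 changed sign, to 0.39, without the cell with most reads of each gene, and of other genes the text names Ccl24 (-0.23) and Lyz1 (from -0.50 to 0.63) did and Isg15 came to 0.00. Of the 13 higher genes Ecm1 was under 4-fold in 4 of 6 alternatives (1.68 to 1.96) and Fcrls in 3 (1.84 to 1.86). Fn1 (1.71 and 1.95), Hr (1.59 and 1.71) and Socs6 (1.85 and 1.999) were so in 2 each. Cd226 (1.99), Ear2 (1.75), Upb1 (1.68) and E230016K23Rik (1.55) were so with comparison cells of at least 500 CPM of Ccr2. Of the 30 genes named for that comparison, 14 crossed the 4-fold line with those comparison cells. With thinned cells 4 did, and without the deepest 10% of members 4 did. Chosen after seeing the data were thinning for the first comparison, leaving out the deepest 10% of members, and leaving out the strongest cell of each gene. The shares after TAC rest on 17 cells, and thinning left them at 0.681%, 0.435% and 0.224%.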
